A study of Homo sapiens with 24 samples.

Results

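The 5 genes described here, CEND1, FXYD7, PIANP, PBXIP1 and PDGFB, stood higher after loss of the replication protein MCM7 in A375 melanoma cells and belong to the genes listed as rising in A549 lung cancer cells. They were chosen on that response from the 21386 genes in the count tables, of which 16087 passed the filter on low counts in A375 cells carrying the MCM7 shRNA, all 5 among them. The choice used the A375 shMCM7 libraries with and without Dox and the A549 libraries, so the values of the 5 genes in those libraries are a description and carry no test. The choice did not rest on a response in A375 cells without the shRNA, and there the 5 genes were tested. Earlier results of these data were known when the genes were chosen.

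MCM7 is a subunit of the ring-shaped helicase that is loaded onto replication origins in G1 and unwinds DNA in S phase. CEND1 promotes exit from the cell cycle in neuronal precursors and binds RANBP9 and the kinase DYRK1B. FXYD7 is a small membrane protein of the FXYD family, best known from brain, that regulates the sodium pump. PIANP is a membrane protein of neural tissue that binds the immune receptor PILRA and associates with the GABA-B receptor. PBXIP1 binds the PBX homeobox factors and also interacts with estrogen receptors and microtubules. PDGFB encodes the B chain of platelet-derived growth factor, whose dimer activates the receptors PDGFRA and PDGFRB.

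A375 and A549 cells were each sequenced in 4 groups of 3 libraries, 24 in all, described by the study as biological replicates. The shMCM7 cells carried a lentiviral Dox-inducible shRNA against MCM7 (transduced at an MOI of 1.4 and selected as a population with puromycin), and received Dox at 1 μg/ml over 72 hours or no Dox (noDox). Parental cells, which lack the shRNA vector, were handled in the same 2 ways and served as the controls, so no library comes from cells with a scrambled shRNA. Before harvest, a double thymidine treatment had stopped the cells of all 24 libraries at the border of G1 and S phase.

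The sequence of the shRNA target is shown because it fixes which transcript the knock-down acts on, with the bases of the second exon it touches in capitals.
shMCM7 target: cagAGGAGGATTTCTACGAAA
It lies on the minus strand of chromosome 7 of GRCh38 and crosses the junction of coding exons 8 and 9 of the 15 exons of transcript MCM7-201 (GENCODE 29), with 3 bases at 100097834 to 100097836 and 18 bases at 100097728 to 100097745. The 21 bases were found in 5 of 13 MCM7 transcripts. None of the transcripts of CEND1 (2), FXYD7 (4), PIANP (6), PBXIP1 (6) and PDGFB (4) in GENCODE 29 held the whole target or the 7 bases that pair with the seed of its guide strand.

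The genes lie on 5 different chromosomes of GRCh38. CEND1 (ENSG00000184524) lies at chr11:787104-790123, PIANP (ENSG00000139200) at chr12:6693792-6700800, PBXIP1 (ENSG00000163346) at chr1:154944076-154956123 and PDGFB (ENSG00000100311) at chr22:39223359-39244751, all on the minus strand, while FXYD7 (ENSG00000221946) lies at chr19:35143250-35154301 on the plus strand. No other gene in the count tables shares exon bases with them, whereas 8.94% of the 4386 exon bases of MCM7 are shared with AP4M1 on the opposite strand. The strand setting of the counting is not given in the sources used here.

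Promoter sequences were matched in RefSeq (GRCh38.p14) for 3 of the 5 genes, CEND1, PIANP and PBXIP1, and are shown because these genes moved together. Each is the longest stretch free of annotated exons (GENCODE 29) within the 250 bases before the RefSeq start, read 5′ to 3′ on the minus strand, with matches in capitals to the GC box (GGGCGG) or the CCAAT box (CCAAT) on either strand. The last base of the PIANP GC box falls in an annotated exon and is not shown. The PIANP stretch lies inside the GENCODE 29 bounds of PIANP (chr12:6693792-6700800). It precedes the RefSeq start but not the GENCODE start of the gene, unlike the stretches of CEND1 and PBXIP1.
CEND1, chr11:790124-790340: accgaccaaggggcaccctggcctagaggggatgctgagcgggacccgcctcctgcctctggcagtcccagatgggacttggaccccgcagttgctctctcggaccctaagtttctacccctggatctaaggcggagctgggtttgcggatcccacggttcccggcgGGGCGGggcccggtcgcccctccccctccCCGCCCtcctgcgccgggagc
PIANP, chr12:6700431-6700613: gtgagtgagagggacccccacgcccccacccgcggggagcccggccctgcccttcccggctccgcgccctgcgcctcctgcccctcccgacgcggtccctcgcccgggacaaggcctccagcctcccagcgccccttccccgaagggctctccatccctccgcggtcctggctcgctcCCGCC
PBXIP1, chr1:154956124-154956349: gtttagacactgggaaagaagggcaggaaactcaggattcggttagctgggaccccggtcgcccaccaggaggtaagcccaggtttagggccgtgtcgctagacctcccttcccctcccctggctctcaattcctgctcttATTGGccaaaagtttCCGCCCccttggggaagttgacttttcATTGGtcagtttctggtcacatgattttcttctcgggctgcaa
CEND1 had GC boxes starting 83 and 54 bases before the start. PIANP had 1 at 20 bases, and PBXIP1 had 1 at 94 bases with CCAAT boxes at 109 and 67 bases. The GC box was the only one of 9 motifs present in all 3 windows, and 42.6% of the 35116 RefSeq promoter windows of that length held it. The CCAAT box, present in 32% of all windows, was matched in PBXIP1 alone. The other 7 motifs, searched on both strands, had no match in the 3 windows. Among them the TATA box (TATAAA) was present in 10.7% of all windows, the CHR element (TTTGAA) in 13.3%, the TEAD motif (GGAATG) in 11.9% and the ETS motif (CCGGAAG) in 8.52%. The E-box (CACGTG) was present in 6.34%, the AP-1 motif (TGACTCA) in 4.2% and the E2F motif (TTTCGCG) in 1.1%. In CpG content the windows were unlike: PIANP held 30 CpG and 78% GC, CEND1 17 CpG and 68.8% GC, and PBXIP1 7 CpG and 53.6% GC, against a median of 11 CpG over all windows.

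Total counts were 146656792 to 283721575 per library in A375 and 17911338 to 23452823 in A549, so that a count of 3 stood at no more than 0.0205 CPM in A375 but at 0.131 to 0.167 CPM in A549. CPM here are counts scaled to the library size with edgeR's TMM factors over all 24 libraries. Of the melanocyte lineage markers, SOX10 and S100B were present in A375 and at 0 counts in all A549 libraries, MITF ranged from 26.3 to 44.0 CPM in A375 and was no lower in A549 (36.0 to 52.7 CPM), and MLANA and TYR had at most 2 counts in any A375 library. In A549, the epithelial markers KRT8, KRT18 and CDH1 were present and the lung markers SFTPB, SFTPC and NKX2-1 had at most 4 counts. MCM7 itself raised doubts about libraries of both lines. In A375, MCM7 was at 75.8, 74.6 and 76.2 CPM in shMCM7 Dox replicates 1 to 3 and at 130, 347 and 354 CPM in shMCM7 noDox, so noDox replicate 1 was itself low in MCM7. In A549, MCM7 was at 97.5 CPM in the library labelled shMCM7 Dox 3, at 101 CPM in that labelled shMCM7 noDox 2 and at 90.7 CPM in that labelled parental noDox 2, and at 302 to 344 CPM in the other 9, so the counts go against the labels and A549 values are given by library.

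All 5 genes stood higher in each of the 3 A375 shMCM7 Dox libraries than in every noDox library, a separation that 26.2% of the 16087 genes tested shared. The same 5 passed the thresholds used for all genes (fold change of at least 1.5, p under 0.01 and FDR under 0.05 in edgeR's quasi-likelihood test), as 5.58% of genes did in the rising direction. Both counts follow from the choice of the genes. In these bulk libraries more RNA per cell and more cells with the RNA cannot be told apart.

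**Figure D1:**
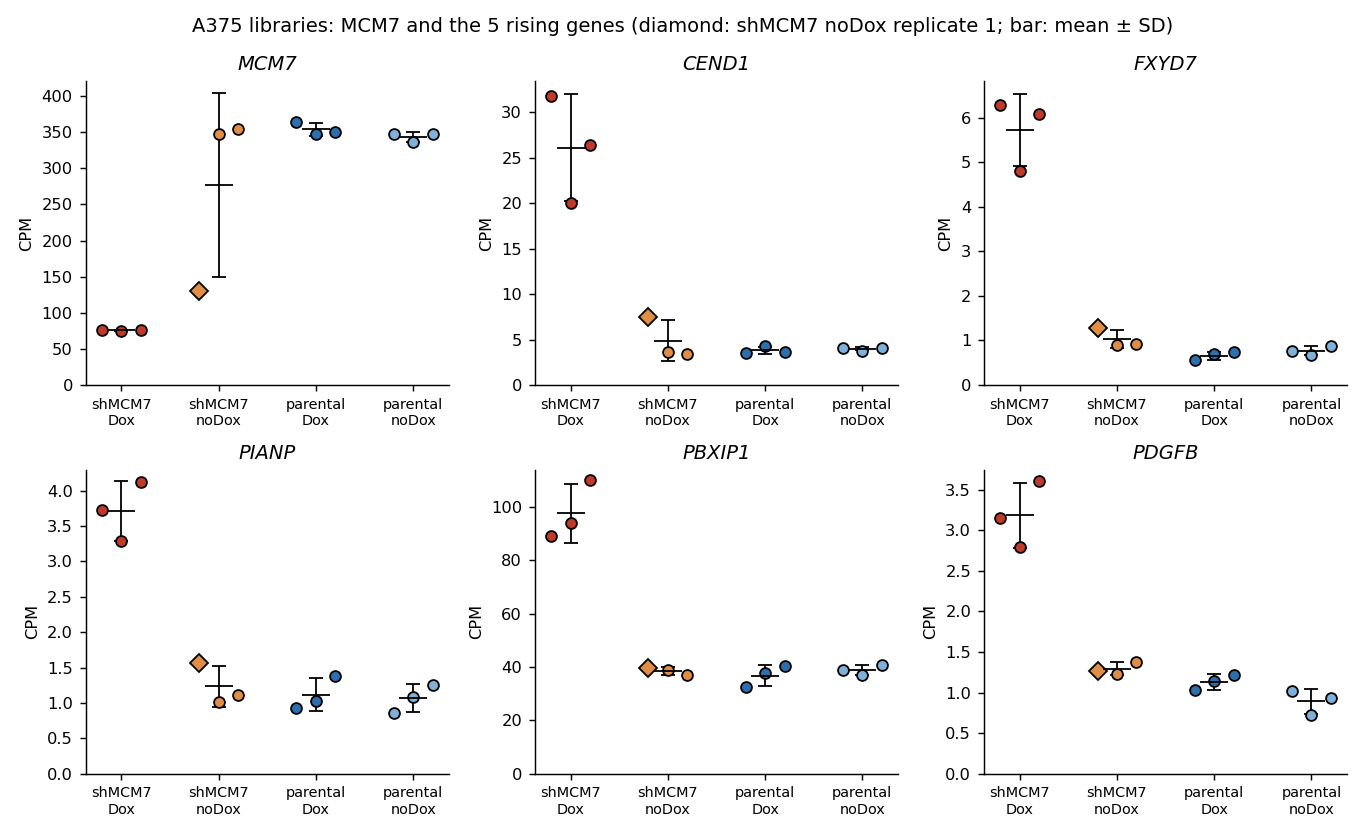
CPM of MCM7 and the 5 genes in the 12 A375 libraries, 1 panel per gene with its own axis from 0. Points are libraries, the horizontal bar is the mean of 3 and the error bar the SD, and the diamond is shMCM7 noDox replicate 1. In every panel of the 5 genes the shMCM7 Dox libraries lie above the 9 others, while MCM7 is lowest in them.

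CEND1 was at 31.8, 20.1 and 26.4 CPM in shMCM7 Dox replicates 1 to 3 and at 7.48, 3.69 and 3.42 CPM in noDox. The Dox libraries did not overlap the noDox libraries, and the highest noDox value was that of replicate 1. Mean levels of 26.1 ± 5.89 and 4.86 ± 2.27 CPM (SD, n = 3) gave a fold change of 5.38 (log2 2.43, SE 0.28), which ranked CEND1 number 13 of the 16087 genes. Without noDox replicate 1, the log2 fold change was 2.88.

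FXYD7 was at 6.28, 4.81 and 6.08 CPM with Dox and at 1.28, 0.905 and 0.926 CPM without. The Dox libraries stood apart from all noDox libraries, of which replicate 1 was the highest. Its fold change was the largest of the 5, 5.53 (log2 2.47, SE 0.16), rank 11. Without noDox replicate 1 the log2 fold change was 2.65. FXYD7 and CEND1 thus moved by about the same factor from levels that differed: 0.577 ± 0.117 RPKM for FXYD7 and 2.95 ± 1.38 RPKM for CEND1 in noDox (SD, n = 3; RPKM being CPM per kilobase of exon).

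PIANP was at 3.72, 3.28 and 4.13 CPM with Dox and at 1.57, 1.01 and 1.12 CPM without. Again noDox replicate 1 was the highest of the noDox libraries, yet it lay well below the Dox libraries. The fold change was 3.01 (log2 1.59, SE 0.17; rank 80), and the log2 value was 1.80 without that replicate.

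PBXIP1, the most abundant of the 5, was at 88.9, 93.9 and 110 CPM with Dox and at 39.7, 38.8 and 36.9 CPM without. The noDox libraries lay close together, replicate 1 included. Its fold change was 2.54 (log2 1.34, SE 0.079; rank 139).

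PDGFB was at 3.15, 2.80 and 3.60 CPM with Dox and at 1.26, 1.23 and 1.38 CPM without. Here noDox replicate 1 lay between the other noDox libraries. The fold change was 2.46 (log2 1.30, SE 0.12; rank 162), the smallest of the 5.

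Per length, the order of the genes in parental noDox cells was PBXIP1 (10.1 ± 0.495 RPKM), CEND1 (2.41 ± 0.0995), FXYD7 (0.429 ± 0.0585), PIANP (0.326 ± 0.0603) and PDGFB (0.237 ± 0.0413; SD, n = 3 each). The libraries of FXYD7 and PIANP overlapped in RPKM, as did those of PIANP and PDGFB, so these neighbours did not differ beyond their spread. In shMCM7 Dox cells the order was the same, at 25.3 ± 2.87, 15.8 ± 3.57, 3.19 ± 0.446, 1.14 ± 0.129 and 0.846 ± 0.107 RPKM. There, no neighbours overlapped.

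The A375 shMCM7 noDox replicate 1 library gave a second reading of the genes at lowered MCM7. Its MCM7 level lay 80.3% of the way from the mean of noDox replicates 2 and 3 to the Dox mean. On the same scale of CPM, PIANP lay 18.9% of the way, CEND1 17.4%, FXYD7 7.53% and PBXIP1 3.18%, and PDGFB was on the other side of the noDox mean at -2.30%. In fold over noDox replicates 2 and 3, MCM7 was at 0.370, against 0.215 for the Dox mean. CEND1 was at 2.10 against 7.34, PIANP at 1.47 against 3.48 and FXYD7 at 1.40 against 6.25. PBXIP1 was at 1.05 against 2.58 and PDGFB at 0.967 against 2.43. In this library each of the 5 genes lay below every Dox library. Positions in CPM weigh a fall and a rise differently. The position of a falling gene, such as MCM7, therefore cannot be compared in size with that of a rising gene. Over the 897 genes called higher with Dox the median position was 10.3% (quartiles -4.09% and 23.0%), and over the 1037 genes called lower it was 24.3% (3.86% and 45.2%). This is 1 library, with no replicate, and the library is part of the noDox group that made the calls.

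**Figure D2:**
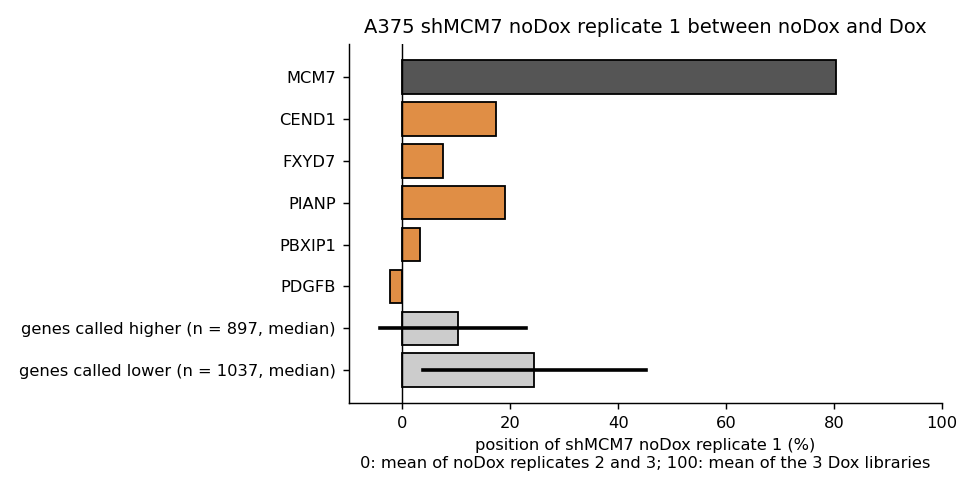
Position of A375 shMCM7 noDox replicate 1 between the mean of noDox replicates 2 and 3 (0%) and the mean of the 3 Dox libraries (100%), in CPM. Bars are MCM7, the 5 genes, and the medians of all genes called higher or lower (black lines, quartiles). MCM7 is at 80.3% and the 5 genes lie between -2.30% and 18.9%, on a linear scale that weighs a fall and a rise differently.

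Parental A375 cells show the 5 genes under Dox alone. The question there is whether Dox changed them without the shRNA. By the same test, 0 of the 5 genes passed the thresholds, and over all 15993 genes tested 0% did. At an unadjusted p under 0.05 there were 1121 genes, and DESeq2 called 3. A fit that blocked on replicate number called 12 genes higher, and none of them was among the 5.

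CEND1 was at 3.51, 4.27 and 3.67 CPM in parental Dox replicates 1 to 3 and at 4.08, 3.79 and 4.07 CPM in parental noDox. The groups overlapped, with a log2 fold change of -0.05 (95% interval -0.28 to 0.17; edgeR FDR 0.932).

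FXYD7 was at 0.552, 0.686 and 0.732 CPM with Dox and at 0.766, 0.668 and 0.878 CPM without. It had a log2 fold change of -0.22 (95% interval -0.60 to 0.17; edgeR FDR 0.826). Its groups also overlapped.

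PIANP was at 0.934, 1.03 and 1.38 CPM with Dox and at 0.856, 1.09 and 1.25 CPM without, and the groups overlapped throughout. PBXIP1 was at 32.4, 37.6 and 40.3 CPM with Dox and at 38.8, 36.9 and 40.7 CPM without, again with overlap. The log2 fold changes were 0.08 for PIANP (95% interval -0.33 to 0.49; edgeR FDR 0.947) and -0.08 for PBXIP1 (-0.25 to 0.095; edgeR FDR 0.877).

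PDGFB was the only member whose parental groups did not overlap, at 1.03, 1.15 and 1.22 CPM with Dox and at 1.02, 0.721 and 0.930 CPM without. The highest noDox and the lowest Dox library were nearly equal. Such a separation was seen in 6.33% of genes, and 1 of the 5 genes had it. The log2 fold change was 0.35 (95% interval -0.010 to 0.71; p 0.0556 and FDR 0.712 in edgeR's test), so a difference was not shown at this spread. The upper bounds of the 5 intervals in parental cells were 0.095 to 0.71. The difference between shMCM7 and parental cells was not tested, since the shMCM7 libraries chose the genes.

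Cells with the shRNA but no Dox were compared by value with the 6 parental libraries. In noDox replicate 1, which was low in MCM7, CEND1 (7.48 CPM), FXYD7 (1.28), PIANP (1.57) and PDGFB (1.26) lay above every parental library, and PBXIP1 (39.7) lay within their range. In noDox replicates 2 and 3, CEND1, PIANP and PBXIP1 lay within the parental range, except CEND1 in replicate 3, at 3.42 CPM just under the lowest of 3.51. FXYD7, at 0.905 and 0.926 CPM, and PDGFB, at 1.23 and 1.38 CPM, lay above the highest parental library (0.878 and 1.22 CPM).

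In A549, each of the 5 genes stood higher in the 3 libraries with low MCM7 than in any of the other 9, whatever the label. The genes were chosen from those listed as rising in this line, so the separation is a description. Libraries were grouped here by MCM7 at under 150 against over 250 CPM, and no library lay between 101 and 302 CPM. Among the 13785 A549 genes above the count filter, 20.3% showed the same separation, and no test was made on it.

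**Figure D3:**
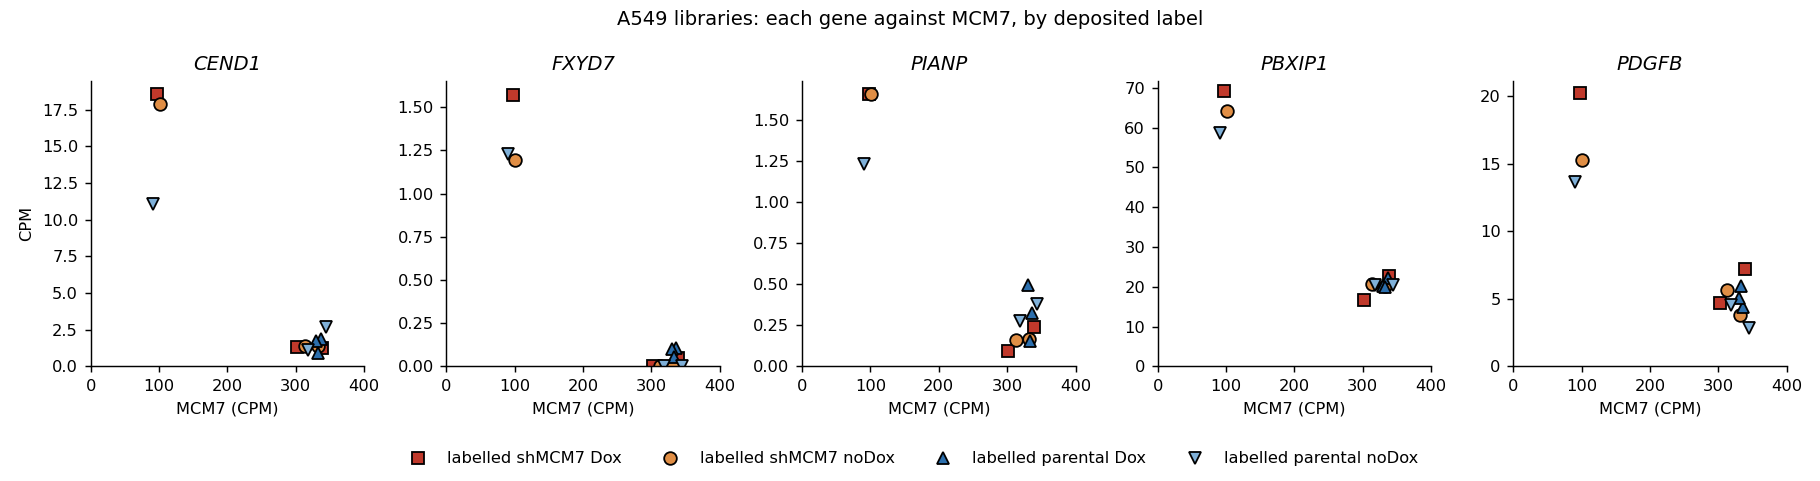
CPM of each of the 5 genes against CPM of MCM7 in the 12 A549 libraries, with the deposited label as marker. In each panel 3 libraries with 3 different labels (shMCM7 Dox, shMCM7 noDox, parental noDox) sit at 90.7 to 101 CPM of MCM7 and above the 9 libraries at 302 to 344 CPM.

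CEND1 was at 18.6 CPM in the library labelled shMCM7 Dox 3, 17.9 in shMCM7 noDox 2 and 11.1 in parental noDox 2. In the other 9 it was at 0.888 to 2.68 CPM, with a median of 1.39. The lowest of the 3 was 4.13 times the highest of the 9, the widest gap of the 4 genes for which a ratio could be given.

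FXYD7 was close to undetected in A549 outside the 3 libraries. It had 0 to 2 counts in each of the other 9, with 5 of them at 0, below the count of 3 taken as the floor. In the same 3 libraries it had 23 to 36 counts, or 1.57, 1.19 and 1.23 CPM.

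PIANP was at 1.66, 1.66 and 1.23 CPM in the 3 libraries, in the same order of labels, and at 0.092 to 0.497 CPM (2 to 10 counts) in the other 9. The gap was 2.48 times. Its values in the 3 libraries were close to those of FXYD7.

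PBXIP1 was at 69.1, 64.2 and 58.7 CPM against 16.6 to 22.8 CPM, a gap of 2.57 times. PDGFB was at 20.3, 15.3 and 13.6 CPM against 2.88 to 7.23 CPM, a gap of 1.89 times and the narrowest. Of the 3 libraries, that labelled shMCM7 Dox 3 was the highest for CEND1, FXYD7, PBXIP1 and PDGFB, and by a narrow margin for PIANP.

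By label, edgeR's test called 0% of 13550 genes in A549 shMCM7 cells and 0% of 13494 genes in A549 parental cells. At an unadjusted p under 0.05 there were 61 and 1137 genes. DESeq2 called 0 in shMCM7 cells and 7 in parental cells. Since the libraries with low MCM7 are spread over the labels, these counts describe the labels as deposited, and no call is read for the 5 genes.

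Between the lines, levels in parental noDox cells are given without a test, since the A549 libraries entered the choice of the genes. PDGFB was at 1.02, 0.721 and 0.930 CPM in A375 and at 4.58, 13.6 and 2.88 CPM in A549. It was lower in all 3 A375 libraries, with a log2 difference, A375 minus A549, of -3.01, and of -2.10 without the A549 library labelled parental noDox 2, which was low in MCM7. Over the 15909 genes tested, edgeR's test called 25.6% lower and 30.3% higher in A375, and nothing is read from these shares for the 5 genes.

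The other 4 genes overlapped between the lines in these libraries, through the A549 library labelled parental noDox 2 alone. In A549 parental noDox 1 and 3, CEND1 was at 1.14 and 2.68 CPM, PIANP at 0.275 and 0.384, and PBXIP1 at 20.6 and 20.4. FXYD7 was at 0 in both. All of these lay below the lowest A375 library (CEND1 3.79, PIANP 0.856, PBXIP1 36.9 and FXYD7 0.668 CPM). Without that same A549 library, the log2 difference of CEND1 turned from -0.35 to 1.03. PIANP moved from 0.75 to 1.66 and PBXIP1 from 0.19 to 0.89, and FXYD7 had 0 counts in both remaining A549 libraries. The 2 lines were sequenced at different depths, and line and depth cannot be told apart.

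The partners of the 5 genes were read from lists, in A375 shMCM7 cells, with the same thresholds. Over all genes tested, 5.58% were called higher and 6.45% lower, and the median log2 fold change was 0.00448. No gene of any list passed in parental A375 cells.

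For FXYD7, the list held the other FXYD proteins and the sodium pump subunits, of which 1 of 11 tested rose and 4 fell (median log2 -0.23). Among those that fell, the pump subunit ATP1B2 fell by 1.32 on the log2 scale, and the regulators FXYD3 and FXYD6 fell by 0.89 and 0.96. FXYD1 rose by 1.03 (log2), a call lost without any 1 of shMCM7 Dox replicate 3 and noDox replicates 2 and 3 (0.85 to 0.89). The pump subunits ATP1B1 and ATP1B3 had log2 fold changes of -0.23 and 0.01 and did not pass. FXYD7 was thus higher while 4 of its relatives and partners were lower. In A549, FXYD6 was at 2.54 to 3.67 CPM in the libraries low in MCM7 and at 1.34 to 2.24 CPM in the others, the opposite order to A375.

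For PDGFB, 2 of the 6 other PDGF ligands and receptors rose and 0 fell (median log2 0.21). The receptor PDGFRB was at 20.2, 22.3 and 28.5 CPM with Dox and at 11.6, 12.6 and 15.6 CPM without (log2 0.84, SE 0.14; edgeR FDR 0.0014), with no overlap. The ligand PDGFD was at 5.08, 6.55 and 5.83 CPM against 3.82, 3.71 and 3.84 CPM (log2 0.62; edgeR FDR 0.0017), also with no overlap, although its fold fell under the threshold without Dox replicate 2 (log2 0.52). Parental libraries had 5.35 to 6.16 CPM of PDGFD, the level of the shMCM7 Dox libraries, so the shMCM7 noDox libraries were the ones that stood apart. PDGFRB, in contrast, was at 8.72 to 13.3 CPM in parental libraries, all below the shMCM7 Dox libraries. PDGFRA had a log2 fold change of -0.21 and PDGFRL of 0.23, neither past the thresholds. In A549, PDGFRB was near its floor, at 0.054 to 0.480 CPM over the 12 libraries, while PDGFD was at 58.2 to 64.2 CPM in the 3 libraries low in MCM7 and at 28.4 to 37.0 CPM in the others.

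For PBXIP1, 0 of the 9 PBX, MEIS and PREP factors passed in either direction (median log2 -0.0081). PBX2 had a log2 fold change of -0.28, under the fold threshold, and PBX3 and PBX4 had 0.03 and -0.09. The binding partners of PBXIP1 therefore showed no call in cells where PBXIP1 itself stood 2.54 times higher.

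For PIANP, 1 of 7 partners passed (median log2 0.14). PILRA, its receptor, had a log2 fold change of -0.02, and the GABA-B receptor subunits GABBR1 and GABBR2 had 0.14 and 0.40, none past the thresholds. The 1 call was KCTD16, an auxiliary subunit of that receptor, at 0.0898 to 0.130 CPM with Dox and 0.0178 to 0.0656 CPM without (log2 1.41). It was lost with DESeq2 and without any 1 of 5 libraries (all but noDox replicate 3).

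For CEND1, the list of genes of cell cycle exit gave 2 higher and 1 lower of 10 tested (median log2 -0.02). The CDK inhibitor CDKN1C, at 7.21, 3.25 and 4.81 CPM with Dox and 1.68, 1.63 and 2.35 CPM without, rose by 1.43 (log2, SE 0.26; edgeR FDR 0.002). Parental libraries had 2.01 to 3.26 CPM of CDKN1C. Within that range lay shMCM7 Dox replicate 2, and noDox replicates 1 and 2 lay below it. CCND1, the cyclin D1 that drives G1 progression, rose by 1.19, and CDKN1A, the CDK inhibitor p21, fell by 0.64. The CEND1-binding proteins RANBP9 and DYRK1B had log2 fold changes of -0.08 and 0.03 and did not pass.

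CEND1, FXYD7 and PIANP are known from neural tissue, and a list of 26 tested neuronal genes was read beside them. Of these, 4 rose and 6 fell (median log2 -0.02). MAP2 rose by 1.20, SCN2A by 0.89, BDNF by 0.65 and STMN2 by 1.29 on the log2 scale, and STMN3, GAP43, UNC13A, SYN1, SNAP25 and TUBB3 fell by 0.71 to 1.25. Without noDox replicate 1, the calls of STMN2 and BDNF were lost, leaving 2 higher and 6 lower. STMN2 was at no more than 0.151 CPM in any of the 6 libraries and was lost under 5 alternatives, and SNAP25 was lost without Dox replicate 3. Genes of the REST complex, a repressor of neuronal genes in other tissues, gave 0 calls of 11 tested, with REST at 58.5 to 68.9 CPM in the 6 libraries. The 3 neural members thus stood higher in cells where neuronal genes moved both ways.

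**Figure D4:**
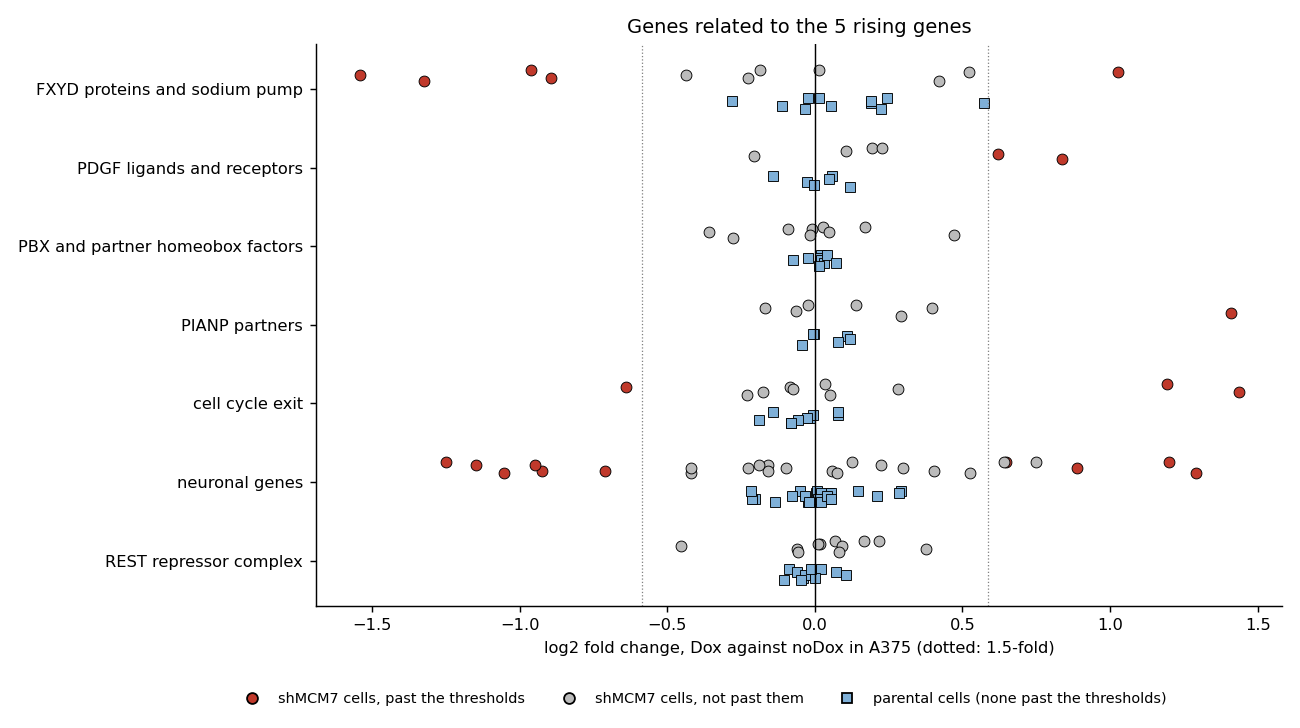
Log2 fold change, Dox against noDox, of the genes on 7 lists related to the 5 genes in A375. Circles are shMCM7 cells (red, past the thresholds) and squares parental cells; dotted lines mark a 1.5-fold change. Called genes lie on both sides of 0 for the FXYD and sodium pump, cell cycle exit and neuronal lists, and there are none for the PBX and REST lists.

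Markers of other cell types were read in the same A375 libraries. Summed melanocyte markers were at 568 to 667 CPM with Dox and 646 to 676 CPM without in shMCM7 cells, and summed epithelial markers at 344 to 456 and 330 to 387 CPM. Most of the first sum was SOX10 (means of 536 CPM with Dox and 592 without). Most of the second was KRT18 (308 and 279) and KRT8 (85.9 and 82.3). Of 6 tested markers on each list, DCT (log2 -1.43) and PMEL (-0.92) fell on the first, and EPCAM rose (1.05) and KRT19 fell (-1.10) on the second. DCT was at no more than 0.561 CPM and EPCAM at no more than 0.826 CPM in these shMCM7 libraries. The KRT19 call, at no more than 0.147 CPM, was lost under 5 alternatives. The part of these markers in the levels of the 5 genes was not tested.

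Across libraries the 5 genes moved with each other. Pearson's r of log2(CPM + 0.5) between members was 0.94 to 0.986 over the 12 A375 libraries and 0.852 to 0.988 over the 12 A549 libraries, and their r with MCM7 was -0.9 to -0.972 and -0.919 to -0.982. These values describe libraries that are shared by all genes. The libraries fall into a low-MCM7 and a high-MCM7 cluster in A549. In A375 they do so except for shMCM7 noDox replicate 1, which lay between at 130 CPM of MCM7. The 5 genes were chosen for that pattern, so no p is given. The weakest pairs were PDGFB with PIANP and with CEND1 in A549 (0.852 and 0.853).

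The genes most like each member were taken by the smaller of the 2 r, among about 12025 genes with a mean of at least 1 CPM in both lines. FXYD7 and PIANP were under that mean in A549 and were not candidates. By r, FXYD7 would have entered the sets of PBXIP1 (0.982 and 0.988) and PIANP (0.98 and 0.96). PIANP would have entered that of CEND1 (0.973 in both lines). For FXYD7 they were SLC6A6, a taurine transporter (0.985 in A375 and 0.989 in A549), PBXIP1 (0.982 and 0.988) and SECISBP2 (0.986 and 0.981). For CEND1 they were C8orf58 (0.983 and 0.977), SLC41A3 (0.98 and 0.973) and PRAF2 (0.971 and 0.967).

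The nearest genes to PIANP included 2 other members, CEND1 (0.973 in both lines) and PBXIP1 (0.974 and 0.962), followed by SYNGR3 (0.961 and 0.958). Of the candidates, those nearest to PBXIP1 were CTIF (0.977 and 0.983), SLC41A3 (0.979 and 0.977) and SLC6A6 (0.986 and 0.977). SLC41A3 thus stood near CEND1 as well and SLC6A6 near FXYD7. PDGFB had a set of its own, with C1RL (0.959 and 0.962), the signal transducer SMAD3 (0.949 and 0.957) and the autophagy gene GABARAPL1 (0.969 and 0.947). With Spearman's rho over all libraries of each line, none of these 3 genes stayed for CEND1, FXYD7, PIANP and PBXIP1, and 1 (SMAD3) stayed for PDGFB. In A549, the ranks of FXYD7 outside the libraries low in MCM7 rest on counts under the floor.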

How the data were processed

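RNA of 24 libraries was sequenced by the authors, and read counts per gene were deposited, 1 table per library, as raw whole numbers listed by Ensembl identifier without normalization. The submitters' processing notes name STAR 2.7.1, Trimmomatic, featureCounts and edgeR with GRCh38.p10; the strand setting is not given in the sources used here. Of 21386 identifiers, 21349 were found in GENCODE 29, used for names and positions.

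Counts were tested in R 4.3.3 with edgeR 4.0.16 (TMM, filterByExpr, glmQLFit and glmQLFTest on the 2 groups compared, prior count 0.125 for fold changes, Benjamini-Hochberg FDR). Calls needed a fold change of 1.5 or more, p under 0.01 and FDR under 0.05. Sequences and figures were made in Python 3.11.15. The fits were tested on simulated data. The members and lists were chosen with earlier results of these data known. Genes named are the 5 members, MCM7, list genes past the thresholds, the receptors, pump subunits and PBX factors of the lists, and for each member the 3 genes most like it. RANBP9, DYRK1B and REST, beyond that rule, were named after their values were seen. Some list genes that the rule covers are not reported here by name.

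The planned comparison of parental noDox cells between the lines is given for the members without its test, because A549 libraries entered their choice. Groups came from the labels, also in A549, where MCM7 goes against them. In A375 shMCM7 cells libraries of the same number deviated together from the means of their groups across genes (r = 0.339, 0.197 and 0.339 for replicates 1 to 3). Libraries of unlike number were not compared in this way, so whether the numbers pair these samples was not settled. The labels state no pairing. Alternatives tried were no filter, size factors of DESeq2 1.42.0, its Wald test, FDR under 0.05 alone, a replicate block, leaving out each library, and Spearman's rho. Intervals of 95% and the floor of 3 counts cover replicate spread and counting error, respectively. No library was left out.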

Additional observations from a re-analysis of the deposited data

How the results depend on the processing

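In A375 shMCM7 cells, the contrast that chose the 5 genes, log2 fold changes over all alternatives were 2.23 to 2.88 for CEND1, 2.38 to 2.65 for FXYD7, 1.47 to 1.80 for PIANP, 1.26 to 1.41 for PBXIP1 and 1.21 to 1.38 for PDGFB. With FDR under 0.05 alone, 3309 genes were called higher and 3599 lower, against 897 and 1037, since the fold limit no longer applies. In parental A375 cells, 0 genes were called higher, 3 by DESeq2, and 0 to 1 when 1 library was left out (1 without parental Dox replicate 3). By label in A549 parental cells, the 0 genes called higher became 7 with DESeq2 and 0 to 300 when 1 library was left out (300 without parental noDox replicate 3); the cause was not tested. In the comparison of the lines, CEND1 reversed from -0.35 to 1.03 (log2) without the A549 library labelled parental noDox 2, with a range of -0.81 to 1.03 over libraries left out. The list counts without A375 shMCM7 noDox replicate 1 were chosen after seeing the data.

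The replicate block raised the genes called higher in parental A375 cells from 0 to 12. There, r between libraries of the same number was 0.278, -0.0994 and 0.51, and a pairing was not settled either. The block changed no other call of a named gene and no other count by over 1.5 times (969 higher and 1091 lower in A375 shMCM7 cells). In A549, FXYD7 and PIANP rest on 0 to 10 counts in 9 of 12 libraries.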
